A study of Zea mays with 18 samples.

Results

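The miR319 family of maize (Zea mays) was followed along the growing leaf, in seedlings with warm nights and in seedlings with chilled nights. Its members were taken by name, as every miRNA of the deposited array table whose name starts with zma-miR319, on either arm of the hairpin. This gave 4 probe sets of the 228 in the table, zma-miR319a-3p, zma-miR319b-3p, zma-miR319c-3p and zma-miR319d-3p, and 0 named as a 5p arm. All 4 carried the same value in every group and the same p-value, so they are 1 profile of 147 distinct ones, written miR319a/b/c/d-3p, and the array did not tell the 4 genes apart. The hybrid ADA313 was used, and leaf 4 was sampled at its meristem, elongation zone and mature zone. Control seedlings had 25 °C by day and 20 °C at night, and chilled seedlings had 25 °C by day and 4 °C at night. Both had 16 h of day, 8 h of night, 15000 lux and 70% relative humidity. Each of the 6 groups had 3 arrays, called biological replicates in the labels, and the table gives 1 bi-weight average of log2 signal per group, a mean that gives distant arrays less weight. How long the chilling lasted, how zones were cut and how many seedlings made 1 sample are not stated in the labels.

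MicroRNAs of the miR319 family guide the cleavage of mRNAs of a class of TCP transcription factors, the CIN type. In Arabidopsis these factors slow cell division at leaf margins and promote the transition to expansion and maturation, and plants with excess miR319 have crinkled leaves with prolonged division. In rice, more miR319 widens the leaf blade, and the family has been linked to the cold response there. TCP mRNAs and other marker genes are not in the table, which holds miRNAs, so the zones were not checked against markers.

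The level of miR319a/b/c/d-3p was high in the meristem and lower in the rest of the leaf, and in the mature zone of chilled leaves it was at background. In the control elongation and mature zones it still ranked 58 and 45 from the top of the 147 profiles. In control leaves the average log2 signal was 10.47 in the meristem, 5.59 in the elongation zone and 5.34 in the mature zone. The averages of chilled leaves were 9.75, 4.93 and 1.59 for the same zones. Both meristem averages lay above all 4 averages of the other zones, and the chilled mature average was the lowest of the 6 and the only one under log2 2, the level taken here as background. Each average had an SE of 0.52, from a spread between arrays (moderated SD 0.90, 3 arrays per group) worked back from the ANOVA p-value that the authors deposited. In the authors' deposited table this ANOVA over all 6 conditions gave the family p = 8.32e-07 and an FDR p of 5.4e-05. In such bulk tissue, fewer cells that make a miRNA and less of it per cell cannot be told apart. Values of single arrays were not in the table, so the overlap of arrays between groups and the number of arrays showing each direction cannot be given.

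**Figure D1:**
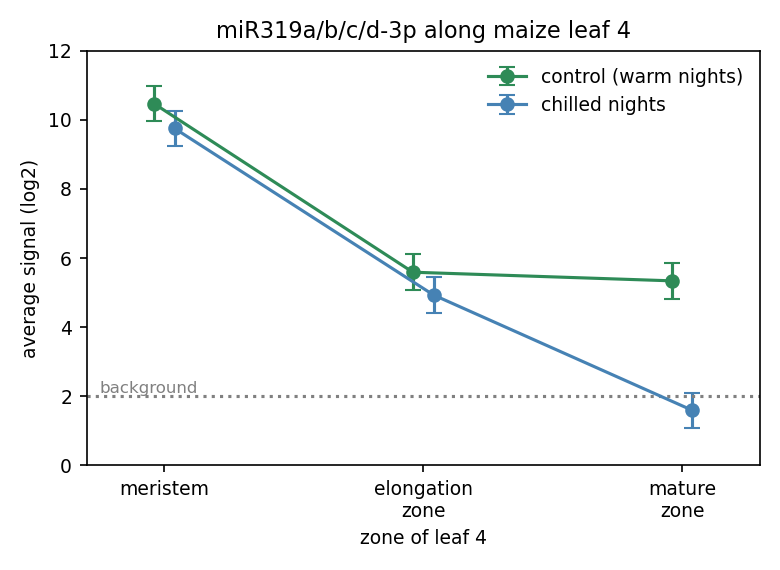
Average log2 signal of miR319a/b/c/d-3p in the 3 zones of leaf 4, with control leaves in green and chilled leaves in blue. Points are the authors' averages of 3 arrays, bars are the SE of 0.52 from the moderated SD and the dotted line is the background level of log2 2. The lines part in the mature zone, at 5.34 against 1.59.

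Ordered from the highest, the levels were control meristem, chilled meristem, control elongation zone, control mature zone, chilled elongation zone and chilled mature zone. Neighbours in this order were compared by the moderated test of limma, with p-values adjusted by the Benjamini-Hochberg method over all 228 probe sets. A wide step lay between the chilled meristem and the control elongation zone (difference 4.16, SE 0.73, adjusted p = 0.000333), and another between the chilled elongation and chilled mature zones (3.34, SE 0.73, adjusted p = 0.00169). As deposited, the other 3 neighbouring pairs did not differ beyond their spread, with differences of 0.72 (limma adjusted p = 0.777), 0.25 (0.820) and 0.41 (0.619). With the chilled mature level set to background the second wide step was 2.93 (limma adjusted p = 0.00636), and it was lost with quantile normalization (0.51) and median subtraction (1.11). Under these 2 scalings the control mature average lay above the control elongation average, and it exceeded the chilled elongation average by 2.61 (limma adjusted p = 0.0123) and 2.51 (0.00703), so the order below the meristem depends on the scaling.

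Chilled and control leaves were compared within each zone to see where cold nights act on the family. In the mature zone miR319a/b/c/d-3p fell from 5.34 to 1.59, a difference of -3.75 (SE 0.73, 95% interval -5.32 to -2.18, limma adjusted p = 0.00222). On the linear scale this is 13.5-fold, with an interval from 4.53-fold to 39.9-fold. With the chilled level set to background it would be -3.34, or 10.1-fold. In this comparison 9.65% of probe sets, 22 of 228, were called lower, and of the 147 distinct profiles 14 were, or 9.52%. The fall of miR319a/b/c/d-3p was the largest of all 147 profiles, ahead of miR169m-3p at -3.26 (SE 0.43) and miR166h-5p at -3.13 (SE 0.36). It remained the largest with quantile normalization (-3.12), with subtraction of the group median (-3.62) and with averages under background raised to log2 2 (-3.34). The differences between these falls were not tested. Falls were spread over 8 of the 28 families, and in 8 of the 14 profiles that fell the chilled mature average was under background, as it was for miR319.

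In the 2 zones nearer the leaf base the chilled averages were also under the control averages, by amounts within the spread of the arrays. In the meristem the averages were 10.47 in control and 9.75 in chilled leaves (difference -0.72, SE 0.73, limma adjusted p = 0.777). The interval ran from -2.29 to 0.85, which leaves room for a fall of up to 2.29 log2 units. In the elongation zone they were 5.59 and 4.93 (difference -0.66, SE 0.73, limma adjusted p = 0.764), with an interval from -2.23 to 0.91. Of all probe sets 8.33%, 19 of 228, passed in the meristem and 0.877%, or 2, in the elongation zone. The counts were 23 and 1 with quantile normalization, 3 and 15 with median subtraction, and 3 and 2 with averages under background raised to log2 2.

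Whether the chilling difference itself changed between zones was then tested, since a call in 1 zone and none in another does not show this. The difference in the mature zone was -3.09 relative to the elongation zone (SE 1.03, 95% interval -5.31 to -0.87, limma adjusted p = 0.0897) and -3.03 relative to the meristem (SE 1.03, interval -5.25 to -0.81, adjusted p = 0.105). Both intervals lie under 0, with unadjusted p-values of 0.00984 and 0.0110, but neither passed once adjusted over the table. Of all probe sets 2.19% and 8.33%, or 5 and 19, passed in these 2 comparisons, 22 and 35 after quantile normalization, and 25 and 19 after subtracting medians. With averages under background raised to log2 2, limma called 0 and 18, and in the first of these comparisons 32 probe sets had an unadjusted p under 0.05. Between the elongation zone and the meristem the chilling differences were 0.06 apart (SE 1.03, interval -2.16 to 2.28, adjusted p = 0.989), where 0% of probe sets passed under limma and 17 had an unadjusted p under 0.05. The recovered SD of miR319a/b/c/d-3p, 0.96 before moderation, was the 13th largest of the 147 profiles, against a median of 0.34, so differences of this profile carry wide intervals.

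**Figure D2:**
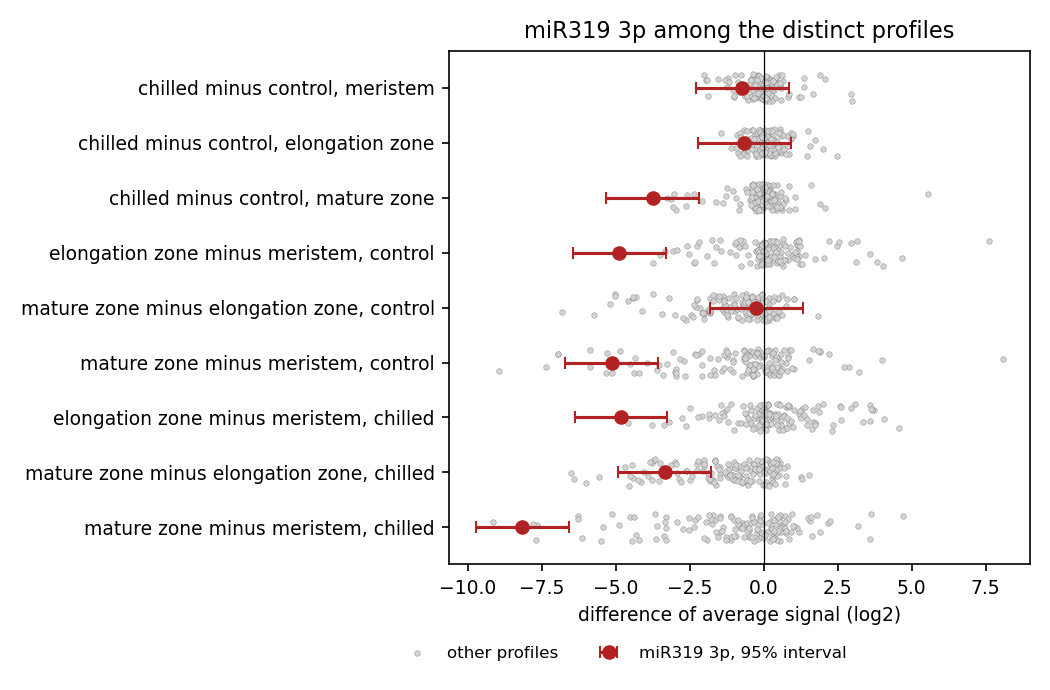
Differences between group averages in log2 units for 9 comparisons, with miR319a/b/c/d-3p in red with its 95% interval and the other distinct profiles as grey points, spread vertically for legibility. The red point is the lowest of all in chilled against control mature zone (-3.75) and in elongation zone against meristem of control (-4.88) and chilled leaves (-4.82).

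Along the control leaf, zones were compared to show how the family changes as cells leave division. The drop came at the first step. From the meristem to the elongation zone miR319a/b/c/d-3p fell by 4.88 log2 units (SE 0.73, 95% interval -6.45 to -3.31, limma adjusted p = 0.000117), or 29.4-fold, the lowest difference of the 147 profiles. In this comparison 26 of 228 probe sets, or 11.4%, were called lower. From the elongation to the mature zone the averages were 5.59 and 5.34 (difference -0.25, SE 0.73, interval -1.82 to 1.32, limma adjusted p = 0.820), a difference that became 1.68 with quantile normalization and 1.51 with median subtraction, neither past the threshold. In that step 42.1% of probe sets, 96 of 228, were called lower, and the miR319 probe sets were not among them. That count was 32 with quantile normalization and 18 with median subtraction, where 47 and 128 were called higher. Over the whole span it fell by 5.13 (SE 0.73, limma adjusted p = 4.08e-05), where 39% of probe sets were called lower.

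In chilled leaves a first step of like size was followed by another. From the meristem to the elongation zone the family fell by 4.82 (SE 0.73, limma adjusted p = 0.000108), again the lowest of the 147 differences, with 14.9% of probe sets called lower. From the elongation to the mature zone it fell by 3.34 (SE 0.73, interval -4.91 to -1.77, limma adjusted p = 0.00169), where 54.8% of probe sets, 125 of 228, were called lower. After quantile normalization 39 were lower and 52 higher, after median subtraction 20 lower and 145 higher, and with averages under background raised to log2 2, 83 lower. This second fall of the family depended on the scaling, and was -0.51 with quantile normalization (limma adjusted p = 0.607), -1.11 with median subtraction (0.182) and -2.93 with the chilled mature level set to background (0.00636). From end to end the family fell by 8.16 log2 units (SE 0.73, interval -9.73 to -6.59, limma adjusted p = 3.39e-07), with 44.7% of probe sets called lower. With the chilled mature level set to background the span was -7.75. The control and chilled spans differ by the -3.03 already given, which did not pass.

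The scalings matter because the table as a whole was dimmer in mature tissue. The median of the 147 profiles was 3.33, 3.44 and 1.68 in the control meristem, elongation and mature zones, and 3.23, 3.78 and 1.55 in the chilled ones. In the mature zone 85 control and 91 chilled averages of the 147 were under background, so the median itself was a background value there. Relative to the median, miR319a/b/c/d-3p stood at 7.14, 2.15 and 3.66 along the control leaf and at 6.52, 1.15 and 0.04 along the chilled leaf. The fall from the meristem and the low chilled mature level were present on this scale too, while the control mature average lay above the control elongation average. Other counts of probe sets called lower moved as well. Between the meristem and mature zone they were 89 in control and 102 in chilled leaves as deposited, 65 and 66 after quantile normalization, and 37 and 39 after median subtraction. From the chilled meristem to the elongation zone they were 34, 43 and 85 in turn. The part of this dimming in the differences between zones was not tested beyond these scalings.

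**Figure D3:**
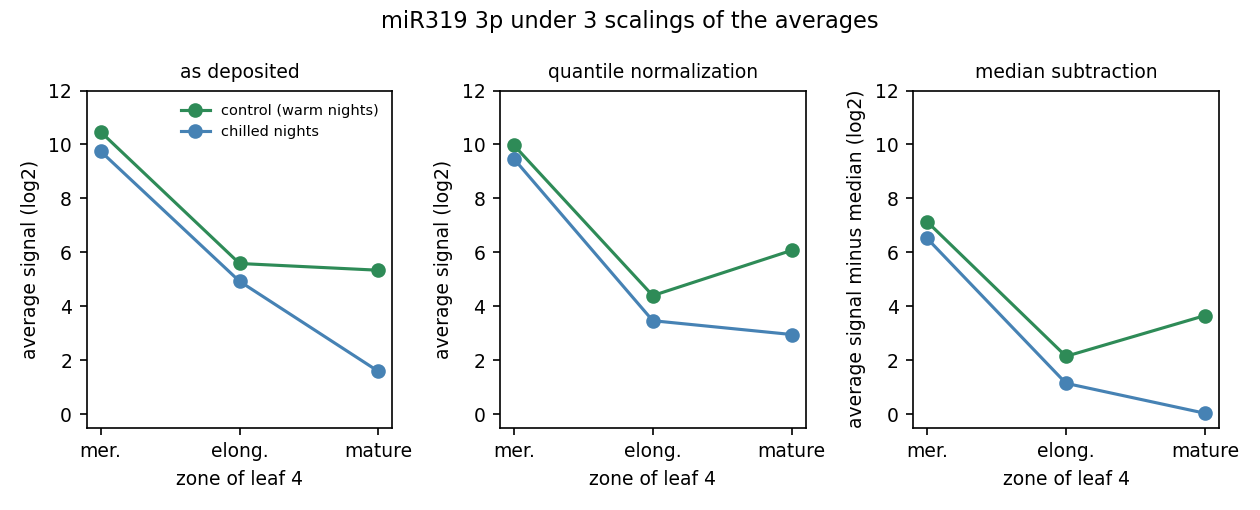
Level of miR319a/b/c/d-3p in the 3 zones of control (green) and chilled (blue) leaves, as deposited, after quantile normalization and after subtraction of the group median, in log2 units. The gap between control and chilled mature zone is -3.75, -3.12 and -3.62 in turn, while the step from elongation to mature zone changes with the scaling.

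The miR159 family is the closest relative of miR319 in sequence and guides the cleavage of mRNAs of GAMYB transcription factors. It was represented by 9 probe sets in 7 distinct profiles. Its brightest 3p profiles kept high levels in all 6 groups, with smaller falls along the leaf. The miR159c/d-3p averages were 12.55, 12.24 and 12.09 along the control leaf and 12.65, 12.01 and 11.96 along the chilled leaf. From meristem to mature zone they fell by 0.46 in control (limma adjusted p = 0.0162) and by 0.69 in chilled leaves (0.000956). The control call was lost with quantile normalization (adjusted p = 0.123), and with median subtraction both differences turned positive, to 1.19 and 0.99. The chilling difference in the mature zone was -0.13 (SE 0.15, 95% interval -0.45 to 0.19, limma adjusted p = 0.675). The miR159h/i-3p profile likewise had 10.85 in the control and 10.54 in the chilled mature zone (-0.31, SE 0.25, limma adjusted p = 0.581). From the control meristem to the elongation zone it fell from 11.39 to 10.46 (-0.93, SE 0.25, limma adjusted p = 0.0112). In chilled leaves it fell from 11.92 to 10.68 over the same step (-1.24, SE 0.25, limma adjusted p = 0.000994) and to 10.54 in the mature zone (-1.38 from the meristem, adjusted p = 0.000305), the latter turning to 0.30 with median subtraction.

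The fainter 3p profiles of miR159 did change with chilling in the mature zone. The miR159e-3p level fell from 4.56 to 1.53 (difference -3.03, SE 0.45, limma adjusted p = 0.000367), and miR159g-3p fell from 5.61 to 3.54 (-2.07, SE 0.63, limma adjusted p = 0.0397). The second call was lost with quantile normalization (-0.31, limma adjusted p = 1) and median subtraction (-1.94, limma adjusted p = 0.0515). In all, 2 of the 7 miR159 profiles fell, 0 rose and 5 did not pass, while 9.52% of all distinct profiles were called lower. The median difference was -0.13 against -0.01 over all 147. With either of these scalings 1 fell, miR159e-3p, and 1 rose, miR159e-5p, whose averages were all under background. The miR159e-3p profile also passed the tests between zones, with a chilling difference lower in the mature zone than in the elongation zone by -3.22 (limma adjusted p = 0.0136) and than in the meristem by -3.67 (adjusted p = 0.00826). With averages under background raised to log2 2 the first of these was -2.75 and no longer passed (limma adjusted p = 0.0547), while the second was -3.20 (0.0144). Its averages in the 2 basal zones were 5.79 and 5.02 in control leaves and 6.43 and 5.21 in chilled leaves, and neither chilling difference there passed (0.64 and 0.19, limma adjusted p = 0.613 and 0.842). Among the 5p arms, miR159a-5p went from 4.81 in the control meristem to 1.89 in the control elongation zone (-2.92, SE 0.92, limma adjusted p = 0.0244), and miR159e-5p and miR159f-5p were near or under background in all 6 groups. From the control meristem to the elongation zone 2 of the 7 miR159 profiles fell and 0 rose, while 11.6% of all distinct profiles were called lower. The median difference was -0.63 against 0.05 over all 147 and -4.88 for miR319. With median subtraction 3 fell, and 2 with quantile normalization or with averages under background raised to log2 2. Differences between miRNAs in their response were not tested, since this needs single arrays.

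**Figure D4:**
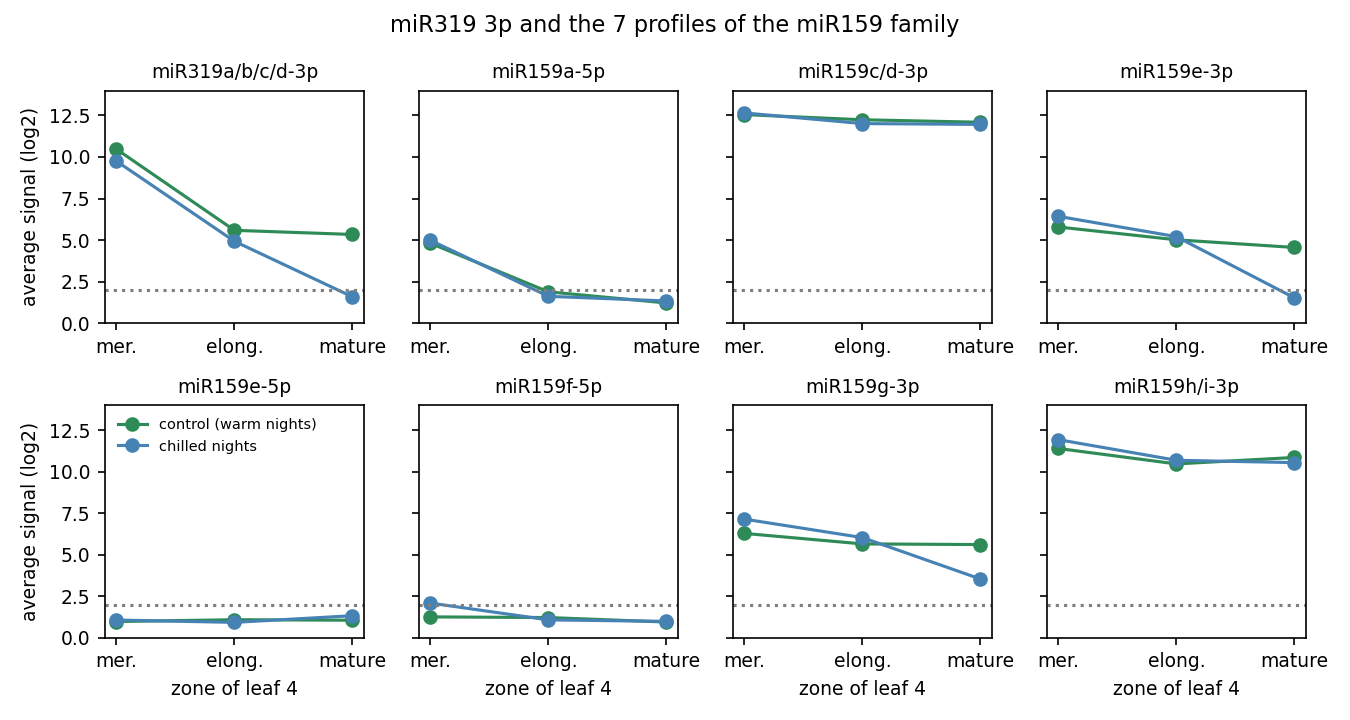
Average log2 signal of miR319a/b/c/d-3p and of the 7 miR159 profiles in the meristem (mer.), elongation zone (elong.) and mature zone of control (green) and chilled (blue) leaves, with background at log2 2 dotted. The chilled mature level is under the control level for miR319 (1.59 against 5.34), miR159e-3p (1.53 against 4.56) and miR159g-3p (3.54 against 5.61), while miR159c/d-3p stays between 11.96 and 12.65.

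In Arabidopsis, TCP factors of the class targeted by miR319 raise the expression of miR396 and miR164 genes, so these families were set beside it. The miR396 family targets growth-regulating factors, which sustain cell division, and miR164 targets NAC factors of the CUC type, which set organ boundaries. From the control meristem to the elongation zone, where miR319 fell, 4 of 7 miR396 profiles rose, 0 fell and 3 did not pass. Of the 8 miR164 profiles 5 rose, 0 fell and 3 did not pass, while 24.5% of all distinct profiles were called higher. The miR164 5p profiles among the risers had like differences, of 1.12 (miR164a/b/c/d/g-5p), 1.24 (miR164e-5p), 1.15 (miR164f-5p) and 1.14 (miR164h-5p). Whether these are separate signals was not tested, so the count may overstate how many miR164 miRNAs rose. Median differences were 0.82 for miR396, 0.92 for miR164 and 0.05 over all profiles. The risers numbered 3 and 3 with quantile normalization, 4 and 0 with median subtraction and 2 and 4 with averages under background raised to log2 2. The miR396c/d profile went from 3.70 to 11.31, and under chilling it rose in the meristem from 3.70 to 6.70 (difference 3.00, SE 0.59, limma adjusted p = 0.0126). The miR396e-3p profile stood at 10.84 and 11.09, and these are the 2 miR396 profiles with the highest average over the groups. The corresponding 2 miR164 profiles were miR164f-5p, from 10.85 to 12 (difference 1.15, SE 0.39, limma adjusted p = 0.0296), and miR164h-5p, from 10.82 to 11.96 (1.14, SE 0.41, limma adjusted p = 0.0308).

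In the chilled mature zone, where miR319 fell, no profile of either family passed. Of 7 miR396 and 8 miR164 profiles 0 passed under limma in either direction, also with median subtraction, with median differences of -0.12 and -0.26. At an unadjusted p under 0.05 there were 1 and 0. Of all 147 distinct profiles 21, or 14.3%, passed in this comparison in either direction. A count of 0 in families this small is not far from that share. The miR396c/d averages were 11.80 and 11.41 there (-0.39, SE 0.59, 95% interval -1.65 to 0.87, limma adjusted p = 0.758). Relative to the meristem, where it rose, its chilling difference in the mature zone was -3.27 with quantile normalization (limma adjusted p = 0.0134) and -3.36 with median subtraction (0.0202). With averages under background raised to log2 2 this difference was -3.39 (limma adjusted p = 0.0202). The miR164f-5p averages were 11.36 and 11.01 (-0.35, SE 0.39, limma adjusted p = 0.675). With quantile normalization 3 profiles passed, miR396e/f-5p (1.33) and miR164a-3p (1.12) as higher and miR396g-5p/h (-0.45) as lower, named here after their values were seen. Over the 6 averages, Pearson's r with miR319 was above 0 for 2 of 7 miR396 profiles and 3 of 8 miR164 profiles. It ran from -0.96 to 0.80 and from -0.75 to 0.67. All profiles above 0 were 3p arms, with r from 0.52 to 0.80 in miR396 and from 0.08 to 0.67 in miR164. Each family also had a 3p profile below 0, at -0.42 and -0.75. Every profile of the other arm, or with no arm in its name, was below 0. These ran from -0.96 to -0.37 in miR396 and from -0.49 to -0.46 in miR164. This split by arm was made after the values were seen, and no span was asked of these profiles. The 3 miR164 profiles above 0 were nearly flat. Between zones, or under chilling within a zone, none of their differences was larger in size than -0.93. The miR159 family had r above 0 in 6 of 7 profiles, the highest being miR159c/d-3p (r = 0.94), whose averages spanned less than the 2 log2 units asked of the profiles compared next. Of those 63 profiles only 17 had an r under 0, so an r above 0 was common in the table.

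The profiles most like miR319a/b/c/d-3p over the 6 group averages were sought among the 63 profiles of other families whose averages spanned at least 2 log2 units. Pearson's r is given as a description over 6 points that share arrays and the dimming of the table in mature tissue, and 7 of the 63 had an r over 0.9. The closest was miR172e (r = 0.96), whose family acts on AP2-type transcription factors and which went from 11.01 in the control meristem to 8.70 and 8.19 in the older zones, and from 11.05 to 8.57 and 7.74 in chilled leaves. It shared the step out of the meristem, but its mature chilling difference was -0.45 (SE 0.30, limma adjusted p = 0.512), which became -1.01 and passed with quantile normalization (limma adjusted p = 0.0265). The miR169a/b-3p profile (r = 0.94) stood at 6.0 in the control meristem, and at 2.45 and 2.18 in the control and chilled mature zone. The miR172a/b/c/d profile (r = 0.94) had both features of miR319, with 6.74, 5.0 and 4.41 along the control leaf and 7.92, 5.30 and 1.78 along the chilled leaf. It fell by 2.63 in the chilled mature zone (SE 0.59, limma adjusted p = 0.00591) and its chilled average was at background, like that of miR319, though with quantile normalization the fall was -1.45 and missed the threshold (limma adjusted p = 0.0951). As deposited, the chilling differences of miR172a/b/c/d were 1.18 in the meristem, 0.30 in the elongation zone and -2.63 in the mature zone. Relative to the meristem, its chilling difference in the mature zone was -3.64 with quantile normalization (limma adjusted p = 0.00678) and -3.78 with median subtraction (0.0102). With averages under background raised to log2 2 it was -3.59 (limma adjusted p = 0.0193). Relative to the elongation zone it did not pass under these settings. The miR529-5p profile (r = 0.94), whose family targets SPL factors, was already at 1.12 in the control mature zone, and miR160b/g-3p (r = 0.93) went from 9.15 to 6.19 along the control leaf. Of these 5 profiles, miR172a/b/c/d passed under chilling in the mature zone with the values as deposited, and miR172e in its place with quantile normalization.

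**Figure D5:**
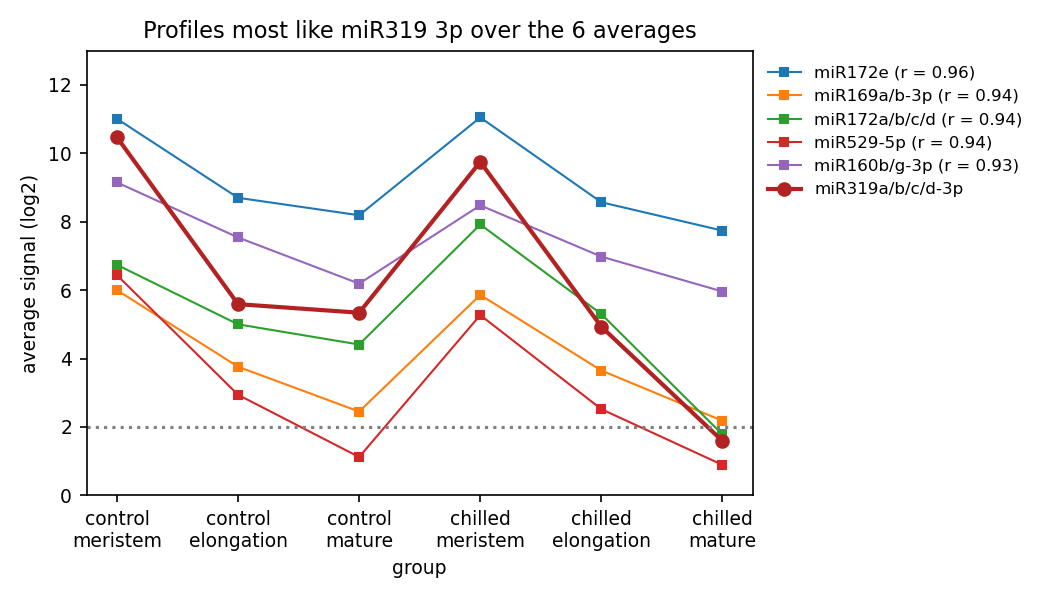
Average log2 signal in the 6 groups of miR319a/b/c/d-3p (red circles) and of the 5 profiles of other families with the highest Pearson's r to it, with background at log2 2 dotted. All 6 lines drop from the meristem to the older zones, and miR319 (5.34 to 1.59) and miR172a/b/c/d (4.41 to 1.78) drop from the control to the chilled mature zone.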

How the data were processed

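The authors deposited 6 bi-weight averages in log2 units per probe set, each over the 3 arrays of a group, and for all conditions together an ANOVA p-value with its FDR p-value, per the file headers. Per the labels' protocols, 10 µg of Trizol-extracted RNA was labelled with the FlashTag Biotin HSR kit. The submitters' processing notes name Affymetrix Expression Console; for background correction, normalization and summarization the method is not given in the sources used. ANOVA p-values reach 0.040982, so the table is preselected, and shares of called probe sets refer to it.

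The planned fit on single arrays could not be made from averages. Each residual variance was recovered by turning the deposited p into F (5 and 12 degrees of freedom) and was moderated with squeezeVar (limma 3.58.1, R 4.3.3; prior 1.94, total 13.9 degrees of freedom). Differences were tested two-sided and adjusted by Benjamini-Hochberg over 228 probe sets within each of 12 contrasts, with a threshold of 0.05. This takes the deposited ANOVA as a comparison of 6 groups of independent arrays, although its model is not stated. Zones with the same replicate number were thus treated as independent. It also assumes equal spread in the groups and treats a bi-weight average as a mean. The code was tested on data simulated under these same assumptions. With 16 residual degrees of freedom in the recovery, the SE of a difference of miR319a/b/c/d-3p was 0.92 in place of 0.73. P-values measure the spread between arrays. The number of arrays limits the precision. Background, log2 2, was set here. Alternatives were 2 scalings, a floor at background, other spreads, tests and adjustments. The scalings and the floor changed the averages only, and their p-values use the spread recovered from the values as deposited. Both scalings make the groups alike over the preselected profiles, and whether this holds between zones was not tested.

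Named miRNAs were the members, every miR159 profile, the 5 profiles with the highest r, and the 2 miR396 and 2 miR164 profiles with the highest average. Others were named after their values were seen. These were miR169m-3p and miR166h-5p, the next largest falls in the chilled mature zone, and the miR396 and miR164 profiles that passed there with quantile normalization. Members and lists were chosen with earlier results of these data known. Gene names come from RefSeq's Zm-B73-REFERENCE-NAM-5.0 annotation, which lists all 4 miR319 genes; the table names no build, and coordinates are left out.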

Additional observations from a re-analysis of the deposited data

How the results depend on the processing

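The fall of miR319a/b/c/d-3p in the chilled mature zone was past the threshold under all 10 alternatives (differences -3.75 to -3.12, adjusted p from 0.00132 to 0.0111). So were its falls from meristem to elongation zone and from meristem to mature zone, in control and in chilled leaves. Its chilling differences in the meristem and elongation zone missed the threshold under all 10, and the mature zone's differences from the other zones under all 9 that could be run (adjusted p from 0.0752 to 0.268 against the elongation zone and from 0.0868 to 0.296 against the meristem), as Tukey's test gives no interaction.

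Both scalings changed results. From elongation to mature zone the chilled difference of -3.34 became -0.51 with quantile normalization and -1.11 with median subtraction, and no longer passed. The control difference of -0.25 became 1.68 and 1.51. The difference of 0.06 between the chilling effects of elongation zone and meristem became -0.43 and -0.38. The cause was not tested. A recovery with 16 residual degrees of freedom, chosen after seeing the data, changed no call.

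No paired analysis was possible because the table holds 1 average per group and no replicate numbers; leaving out a replicate could not be run for the same reason.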

Other observations

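The 4 miR319 genes are not all isolated in the maize genome. In RefSeq's Zm-B73-REFERENCE-NAM-5.0 annotation, MIR319b has MIR159c close by, with 1 other annotated gene starting between them, and MIR319d has MIR159d close by, with 2 others between. The averages of their mature products changed by different amounts, although Pearson's r between the profiles was 0.94 over the 6 averages. In control leaves miR319a/b/c/d-3p went from 10.47 in the meristem to 5.34 in the mature zone, and miR159c/d-3p from 12.55 to 12.09. Since the miR319 probe sets share 1 profile, the part of MIR319b and MIR319d in it cannot be told apart from that of MIR319a and MIR319c, which have no miR159 gene that close (at least 2182 genes lie between).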
